A study of Mus musculus with 3 samples.

Results

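The comparison described here set muscle in which FoxP1 had been knocked down against control muscle, both from mice that carried a tumour. FoxP1 is a forkhead transcription factor best known as a repressor, and it belongs to the same large family as the FoxO factors, which drive the loss of muscle mass in fasting and disease. Cachexia is the wasting of muscle that accompanies cancer, and mice with the colon 26 adenocarcinoma (C26), a colon carcinoma that grows under the skin, are a common model of it. In adult fibres, the voltage sensor of the surface membrane opens the calcium release channel of the sarcoplasmic reticulum, and MEF2 and MyoD family factors keep the genes of this machinery and of the sarcomere active.

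Each group was 1 Mouse Gene 2.0 ST array that held tibialis anterior RNA pooled from 3 male CD2F1 mice, which were 10 weeks old. The C26 scrambled-shRNA mice received 500000 C26 cells in each flank 2 weeks after an AAV9 vector with a scrambled shRNA, and the C26 FoxP1-shRNA mice received the same tumour cells after an AAV9 vector with an shRNA against FoxP1. The dose was 1e+11 vector genomes in 20 µL per muscle, and the muscles were taken on day 26. The remaining array, of Sham mice with scrambled-shRNA and no tumour, is given as a level beside the others. The scrambled vector carried GFP and the FoxP1-shRNA vector carried mCherry, so the shRNA and the marker protein cannot be told apart. The shRNA was driven by U6, a promoter that is active in most cell types, so the promoter did not restrict it to muscle fibres. Which cells took up the vector was not tested.

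All 25206 genes of the table were compared between 2 of the 3 arrays of the series, as the difference of the log2 expression values (FoxP1-shRNA minus scrambled-shRNA, both in C26 mice). With 1 array a side there are no replicates, so no value below has a test or an error over mice, and 2-fold served as a fixed line for counting genes. At or above 2 times scrambled-shRNA were 362 genes, which is 1.44% of those measured, and at or below 0.5 times were 267 genes, 1.06%. The difference had a median of -0.03 and an SD over genes of 0.40, and 68.3% of genes lay within 1.25-fold. Just inside the 2-fold line were 84 raised and 63 lowered genes (log2 size of 1.0 to 1.1), and just outside it (0.9 to 1.0) were 112 and 96. The array medians were 3.99 with FoxP1-shRNA and 4.05 with scrambled-shRNA.

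Bright genes carried most of these differences. In the brightest 6302 genes by mean level of both arrays, 2.71% were raised and 2.51% lowered past 2-fold, against 0.365% and 0.301% in the 6302 dimmest, where an array measures little above its background. The 362 raised genes had a median level of 6.45 with FoxP1-shRNA, 5.04 with scrambled-shRNA and 6.72 in Sham. The 267 lowered genes had a median of 5.58 with FoxP1-shRNA, 7.04 with scrambled-shRNA and 5.43 in Sham. Both sets were chosen on the FoxP1-shRNA and scrambled-shRNA arrays, so these medians describe the sets and test nothing.

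**Figure D1:**
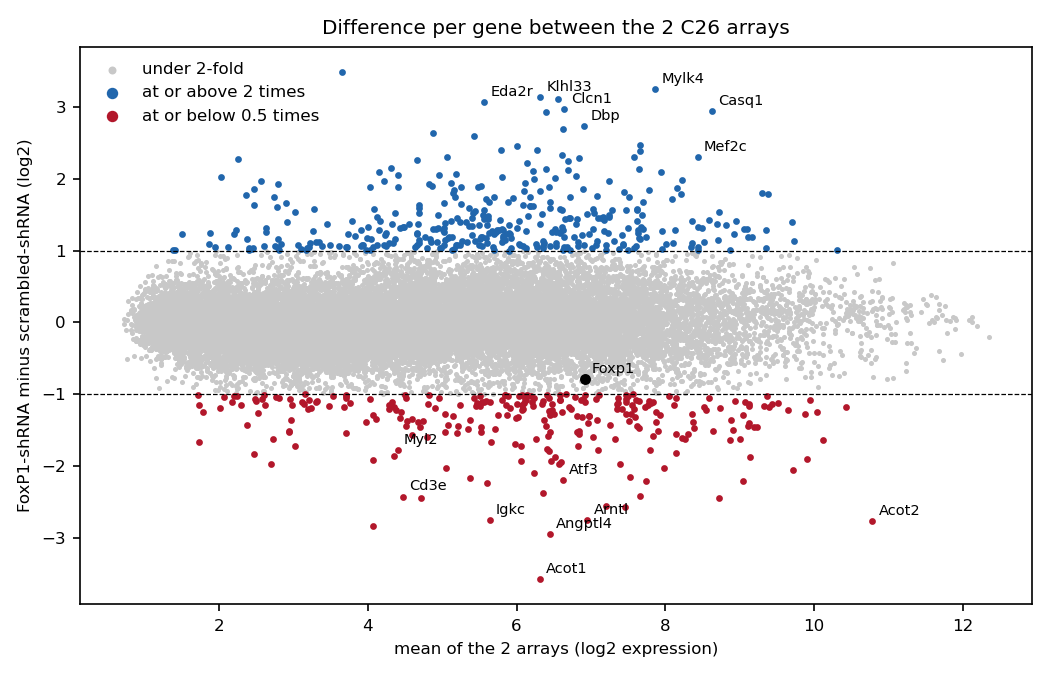
Log2 difference of each gene between the C26 FoxP1-shRNA and C26 scrambled-shRNA arrays (y axis) against the mean log2 expression of both (x axis), 1 point per gene; dashed lines mark 2-fold. The 362 genes at or above 2 times (blue) and the 267 at or below 0.5 times (red) span most levels, and Foxp1 (black) lies at -0.79.

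Foxp1 itself was 1.73-fold lower in the knockdown, with a log2 level of 6.52 with FoxP1-shRNA against 7.31 with scrambled-shRNA and 6.41 in Sham. It stayed inside the 2-fold line. Its relative Foxp2 was at 4.99 with FoxP1-shRNA against 4.64 with scrambled-shRNA and 4.39 in Sham and Foxp4 at 4.43 with FoxP1-shRNA against 4.61 with scrambled-shRNA and 4.62 in Sham. Foxo1, the FoxO factor that activates atrophy genes, was 1.65-fold lower (log2 8.12 with FoxP1-shRNA against 8.84 with scrambled-shRNA and 6.46 in Sham), and Foxo3 differed by -0.22. Of the 8 Foxp and Foxo genes, none passed 2-fold in either direction. The tissue label was checked on 15 genes that mark skeletal muscle fibres, such as Ckm, the muscle creatine kinase, which read 11.88 with FoxP1-shRNA against 11.65 with scrambled-shRNA and 12.04 in Sham. Their median level was 11.68, 11.60 and 11.97 on the FoxP1-shRNA, scrambled-shRNA and Sham arrays. These levels lie near the highest values of the FoxP1-shRNA and scrambled-shRNA arrays, 12.25 and 12.45. None of the 15 passed 2-fold, but as deposited all 15 differences were above 0, up to 0.77. Their median was 0.10, and it changed sign under cyclic loess normalization (-0.03).

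The 15 highest differences among genes with an ordinary symbol and a level above the array median included genes of the fibre membrane, the calcium store and the sarcomere. Mylk4, which encodes a myosin light chain kinase, read 9.49 with FoxP1-shRNA against 6.24 with scrambled-shRNA and 11.11 in Sham, which is 9.53-fold higher in the knockdown. Klhl33, a kelch-like protein, was 8.82-fold higher (log2 7.88 with FoxP1-shRNA against 4.74 with scrambled-shRNA and 7.84 in Sham). Castor2, a partner of the arginine sensor CASTOR1 upstream of mTORC1, was 8.68-fold higher, at 8.11 with FoxP1-shRNA against 4.99 with scrambled-shRNA and 7.73 in Sham. These 3 genes were lowest on the scrambled-shRNA array, and Klhl33 and Castor2 reached or exceeded their Sham level with FoxP1-shRNA, whereas Mylk4 did not.

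Clcn1, the chloride channel that sets the resting conductance of the fibre membrane, was 7.87-fold higher, at 8.13 with FoxP1-shRNA against 5.15 with scrambled-shRNA and 8.90 in Sham. Casq1, the calcium-binding protein that fills the calcium store of fast fibres, read 10.10 with FoxP1-shRNA against 7.16 with scrambled-shRNA and 11.48 in Sham. Both stood well above the tumour-bearing control and below Sham. Abcd2, a peroxisomal transporter of very long-chain fatty acids, was 7.61-fold higher, and Lmod3, a leiomodin that nucleates actin in thin filaments, was 6.47-fold higher. Also among the 15 highest were Cyp4f39, a cytochrome P450 (6.22-fold higher), Stxbp4, a syntaxin-binding protein (6.04-fold higher), Wfdc1 (5.30-fold higher), Mlip, which binds lamin A/C (5.24-fold higher), and Sema6c, a semaphorin (5.03-fold higher).

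Of the 15 highest, Klhl33, Castor2, Eda2r, Tmem100 and Mlip were higher with FoxP1-shRNA than on both other arrays. Eda2r, the ectodysplasin A2 receptor and a relative of the TNF receptors, read 7.10 with FoxP1-shRNA against 4.03 with scrambled-shRNA and 5.50 in Sham, and the membrane protein Tmem100 read 8.89 with FoxP1-shRNA against 6.42 with scrambled-shRNA and 7.08 in Sham. Mlip read 8.85 with FoxP1-shRNA against 6.46 with scrambled-shRNA and 8.36 in Sham, and Klhl33 exceeded Sham by a small margin.

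**Figure D2:**
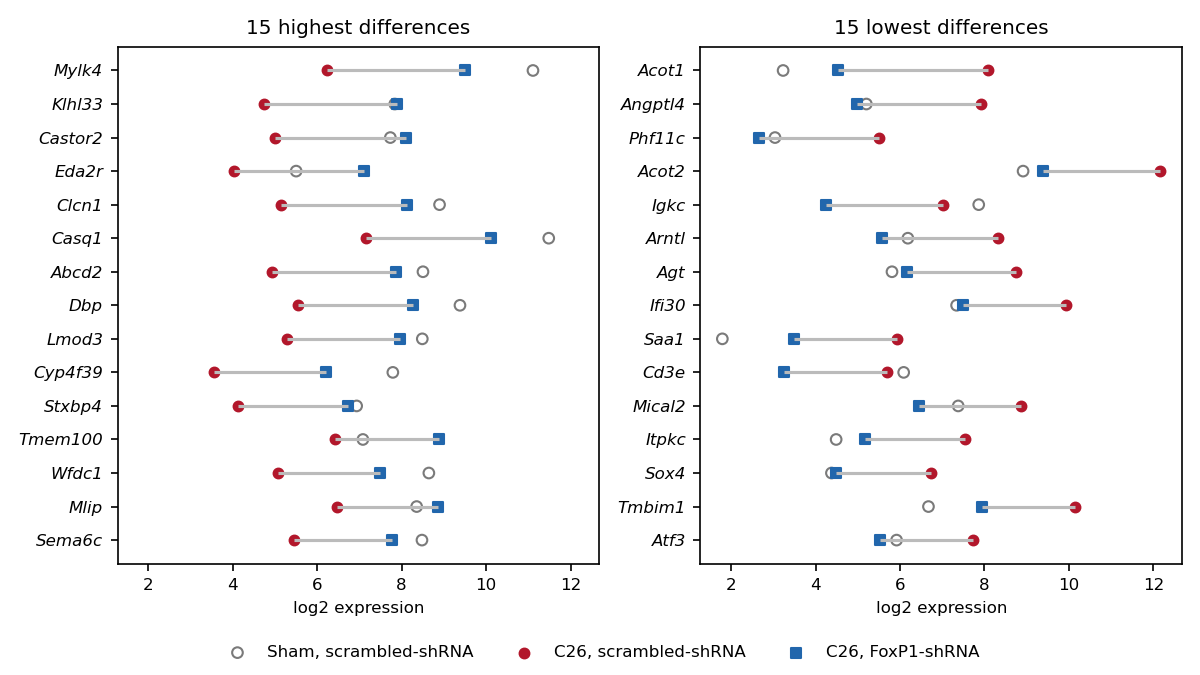
Log2 expression of the 15 genes with the highest (left) and the 15 with the lowest (right) difference between the C26 arrays. Only genes with an ordinary symbol and a level above the array median were ranked. Grey rings are Sham scrambled-shRNA, red circles C26 scrambled-shRNA and blue squares C26 FoxP1-shRNA, 1 pooled array each. Mylk4 lay highest at 9.53-fold higher and Acot1 lowest at 11.9-fold lower. Blue squares of Klhl33, Castor2, Eda2r, Tmem100 and Mlip lie above, and those of Angptl4, Phf11c, Igkc, Arntl, Cd3e, Mical2 and Atf3 below, both other arrays.

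The proximal promoters of the raised genes were searched for 7 motifs, since MEF2 factors act at an A/T-rich site in many muscle genes and Mef2c was itself 4.92-fold higher in the knockdown (log2 9.58 with FoxP1-shRNA against 7.28 with scrambled-shRNA and 10.47 in Sham). The following 4 stretches, the 120 bases before the RefSeq start of raised genes (GRCm38.p6, 5′ to 3′ on the strand of the gene), show the MEF2 match in capitals. Mylk4, Klhl33 and Clcn1 are 3 of the 5 highest genes among those with an ordinary symbol and a level above the array median, and Casq2 is the calsequestrin of slow and cardiac muscle.
Mylk4 (chr13:32783965-32784084, minus strand): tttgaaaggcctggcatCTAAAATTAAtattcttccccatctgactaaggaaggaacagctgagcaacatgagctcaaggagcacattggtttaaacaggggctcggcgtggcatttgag
Klhl33 (chr14:50897484-50897603, minus strand): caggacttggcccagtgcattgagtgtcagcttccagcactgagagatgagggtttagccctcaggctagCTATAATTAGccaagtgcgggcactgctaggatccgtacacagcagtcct
Clcn1 (chr6:42286565-42286684, plus strand): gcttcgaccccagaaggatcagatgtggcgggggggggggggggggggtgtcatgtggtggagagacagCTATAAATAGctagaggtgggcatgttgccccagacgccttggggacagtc
Casq2 (chr3:102086295-102086414, plus strand): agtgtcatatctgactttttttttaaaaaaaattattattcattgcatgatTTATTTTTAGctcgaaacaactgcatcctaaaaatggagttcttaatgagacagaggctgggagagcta
The match lies at bases -103 to -94 in Mylk4, -50 to -41 in Klhl33, -51 to -42 in Clcn1 and -69 to -60 in Casq2, counted back from -1 at the base before the start. Another pair shows lowered genes. The capitals mark the MEF2 match of Atf3, at bases -22 to -13, and the heat shock matches of Hspb1, a small heat shock protein, of which the first is at -117 to -110.
Atf3 (chr1:191183334-191183453, minus strand): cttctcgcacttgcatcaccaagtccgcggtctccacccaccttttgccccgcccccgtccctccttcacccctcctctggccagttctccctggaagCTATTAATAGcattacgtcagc
Hspb1 (chr5:135887799-135887918, plus strand): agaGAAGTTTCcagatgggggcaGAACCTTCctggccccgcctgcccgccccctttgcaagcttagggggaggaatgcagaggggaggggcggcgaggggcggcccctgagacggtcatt

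Promoters from 250 bases before to 50 after the start were at hand for 263 of the raised, 189 of the lowered and 17452 of all genes, some with several starts. A MEF2 match on either strand stood in 6.997% of the 343 promoters of raised genes, 3.85% of the 234 of lowered genes and 2.58% of all 21141. The E-box CAGCTG, read by MyoD family factors, was found in 25.1%, 16.7% and 16.2%. The forkhead motif TGTTTAC was found in 2.62%, 2.56% and 3.09%, so its share was close to that of all promoters in both sets. For the heat shock motif GAANNTTC the shares were 3.79%, 5.98% and 6.95%, for the amino acid response motif TGATGNAA (CARE) 3.21%, 2.14% and 3.33%, for the D box TTATGNAA 1.75%, 2.56% and 3.09%, and for the antioxidant motif TGACNNNGC 12.0%, 16.7% and 13.1%. The motifs are distinct in their letters, matches of different motifs may overlap, and a match of letters does not show that a factor binds there.

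**Figure D3:**
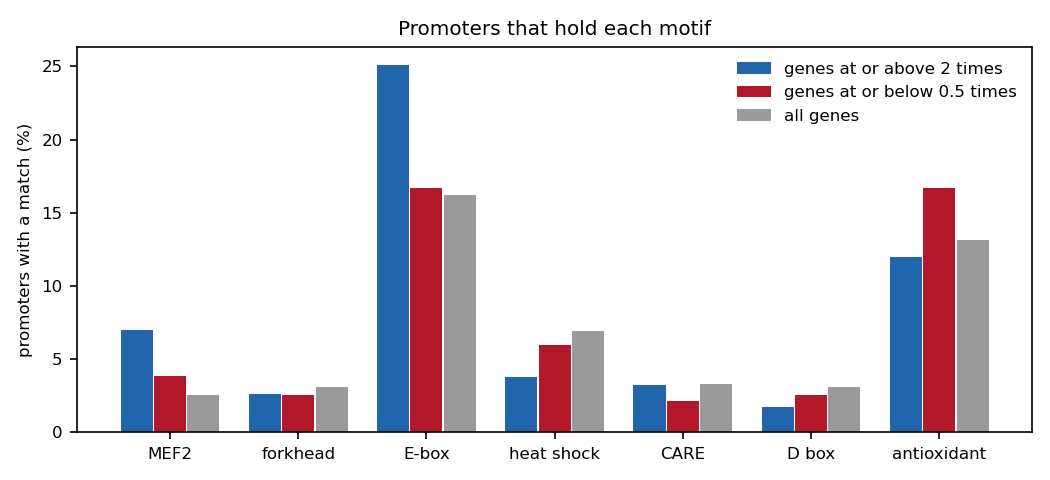
Percent of promoters (250 bases before to 50 after the start) that hold each of 7 motifs on either strand, for genes at or above 2 times (blue), at or below 0.5 times (red) and all genes (grey). The raised genes stand highest for MEF2 (6.997%) and the E-box (25.1%), and the forkhead bars lie between 2.56% and 3.09%.

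Among the lists of muscle fibre genes, that of the membrane that carries the action potential had the most raised genes for its size. Of 18 measured genes of membrane excitability, 9 were at or above 2 times and none was at or below 0.5 times, and the list's median was 0.96 against -0.03 over all genes. After Clcn1, the members with the highest values were Aqp4, the water channel of fast fibres (log2 6.22 with FoxP1-shRNA against 4.15 with scrambled-shRNA and 8.06 in Sham), and Dmpk, the kinase whose gene carries the repeat of myotonic dystrophy (log2 8.69 with FoxP1-shRNA against 6.85 with scrambled-shRNA and 8.75 in Sham). Atp1b2, a subunit of the sodium pump, was 3.29-fold higher, Scn4b, a subunit of the sodium channel, was 2.99-fold higher, and Kcnq5, a potassium channel, was 2.82-fold higher. The lowest member was Kcnj11, the pore of the ATP-sensitive potassium channel, at -0.28.

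Excitation-contraction coupling and calcium release gave 8 of 26 genes at or above 2 times, none at or below 0.5 times and a median of 0.70. Sypl2 (mitsugumin 29), a protein of the triad, read 7.26 with FoxP1-shRNA against 5.03 with scrambled-shRNA and 8.10 in Sham. Casq2 read 7.23 with FoxP1-shRNA against 5.40 with scrambled-shRNA and 7.38 in Sham, and Cacnb1, a subunit of the voltage sensor, read 8.35 with FoxP1-shRNA against 6.53 with scrambled-shRNA and 8.04 in Sham. Cacnb1 thus passed its Sham level, Casq2 came close to it and Sypl2 remained below. Stac3, which links the voltage sensor to the release channel, was 2.59-fold higher, Camk2a, a calcium-dependent kinase, was 3.19-fold higher and Jph2, which holds the triad membranes together, was 2.39-fold higher. Ryr1, the release channel itself, was at 10.89 with FoxP1-shRNA against 10.69 with scrambled-shRNA and 11.06 in Sham, inside 2-fold, and the kinase gene Camk2d was 1.77-fold lower.

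Calcium removal and store entry had 4 of 19 genes at or above 2 times, none at or below 0.5 times and a median of 0.49. They were Slc8a3, a sodium-calcium exchanger (4.32-fold higher, log2 7.27 with FoxP1-shRNA against 5.16 with scrambled-shRNA and 7.29 in Sham), Mrln, whose product myoregulin restrains the calcium pump (2.75-fold higher), Atp2b3, a calcium pump of the surface membrane (2.50-fold higher), and Stim1, the sensor of the calcium store (2.05-fold higher). Atp2a2, the pump of slow and cardiac muscle, was the lowest at -0.52.

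At the neuromuscular junction, 5 of 18 genes were at or above 2 times and 1 was at or below 0.5 times, with a median of 0.56. Chrna1 and Chrnb1, subunits of the acetylcholine receptor, read 7.60 with FoxP1-shRNA against 5.85 with scrambled-shRNA and 6.11 in Sham and 7.86 with FoxP1-shRNA against 6.41 with scrambled-shRNA and 6.83 in Sham, both above their Sham levels. The adult receptor subunit Chrne was 2.44-fold higher, Ache, the enzyme that breaks down acetylcholine, was 3.17-fold higher, and Prima1, its membrane anchor, was 2.37-fold higher. Musk, the kinase through which agrin gathers receptors, went the other way, at 6.82 with FoxP1-shRNA against 8.19 with scrambled-shRNA and 6.41 in Sham. Chrna1, Chrnb1 and Chrne therefore stood on the other side of the tumour-bearing control from Musk.

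The dystrophin complex, sarcolemma and caveolae list held 5 of 21 genes at or above 2 times and none at or below 0.5 times, with a median of 0.20. Cav3, the muscle caveolin, read 6.15 with FoxP1-shRNA against 4.56 with scrambled-shRNA and 6.27 in Sham, and Sspn (sarcospan) was 2.84-fold higher. The others were Popdc2 (2.83-fold higher), the syntrophin Sntb1 (2.73-fold higher) and the sarcoglycan Sgcd (2.43-fold higher), while Dag1, dystroglycan, was 1.43-fold lower.

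Sarcomere genes were split between raised and lowered members. In the Z disc and intermediate filament list, 7 of 26 genes were at or above 2 times and 3 at or below 0.5 times, with a median of 0.41. Ky, the kyphoscoliosis peptidase, read 5.49 with FoxP1-shRNA against 3.89 with scrambled-shRNA and 8.27 in Sham, Synpo2l was 2.95-fold higher, Synm, an intermediate filament protein, was 2.45-fold higher, and Ldb3 (ZASP) was 2.43-fold higher. The 3 lowered members, Ankrd1, Ankrd2 and Csrp3, are proteins that respond to stretch and load. Ankrd1 read 8.20 with FoxP1-shRNA against 10.07 with scrambled-shRNA and 7.37 in Sham, Ankrd2 9.24 with FoxP1-shRNA against 10.51 with scrambled-shRNA and 8.12 in Sham and Csrp3 8.74 with FoxP1-shRNA against 9.91 with scrambled-shRNA and 8.61 in Sham. All 3 were highest on the tumour-bearing control array and remained above Sham with FoxP1-shRNA.

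Of 22 thick filament and M band genes, 3 were at or above 2 times, which besides Mylk4 were Smpx (2.29-fold higher) and Lrrc39, also called myomasp (2.01-fold higher), and 1, Myl2, was at or below 0.5 times. Myom2, an M band protein, was at 10.37 with FoxP1-shRNA against 10.31 with scrambled-shRNA and 10.34 in Sham. Of 22 thin filament genes, 3 were at or above 2 times, namely Lmod3, Tmod4, which caps the pointed end of actin (2.44-fold higher), and Kbtbd13 (2.44-fold higher). Xirp1, an actin-binding repair protein, was the lowered one, at 8.05 with FoxP1-shRNA against 9.69 with scrambled-shRNA and 7.68 in Sham. The medians of both lists were small, 0.24 and 0.07, and the thin filament median changed sign under cyclic loess normalization (-0.04).

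Several other low values of the filament lists belonged to slow-fibre isoforms, a group put together after the values were seen, while Flnc (filamin C), Igfn1, Lmod2 and Bag3 were also below 0 (-0.71, -0.57, -0.48 and -0.36). Myl2, the slow regulatory light chain, was 3.43-fold lower, at 3.51 with FoxP1-shRNA against 5.29 with scrambled-shRNA and 4.34 in Sham. Next came Tnni1 (1.98-fold lower), Tnnt1 (1.86-fold lower), Tpm3 (1.86-fold lower) and Tnnc1 (1.76-fold lower), the slow troponins and tropomyosin, and Myh7, the slow myosin heavy chain (1.67-fold lower). Casq2, the calsequestrin of slow and cardiac muscle, was not part of the group and was 3.55-fold higher. Of the 9 genes in the group, 8 were below 0, with a median of -0.82, and only Myl2 passed 2-fold. The levels were low for muscle genes, since the tibialis anterior is mostly fast, and Myh2, the myosin of fast oxidative fibres, was 1.54-fold higher.

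**Figure D4:**
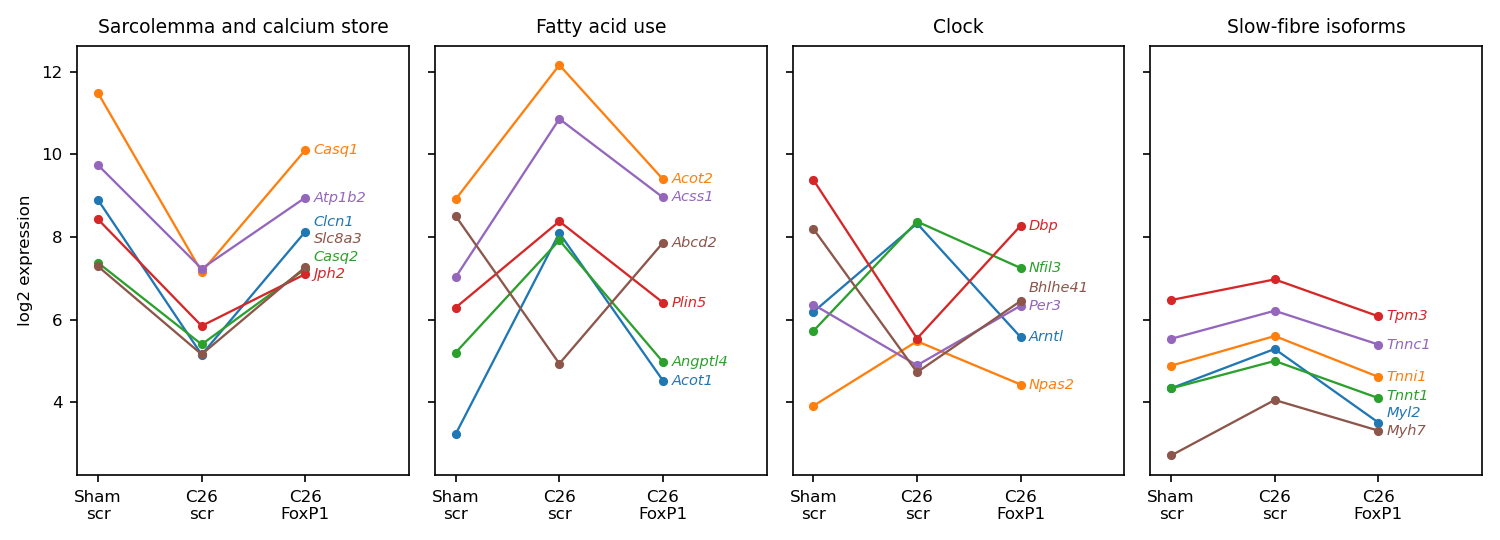
Log2 expression of chosen genes on the Sham scrambled-shRNA (scr), C26 scrambled-shRNA and C26 FoxP1-shRNA arrays, 1 pooled array each, joined by lines. The genes were picked by hand, most with large differences between the C26 arrays, so the shapes describe these genes and test nothing. The drawn membrane and calcium store genes form a V with a low point in the tumour-bearing control. The drawn fatty acid genes other than Abcd2 and the slow isoforms peak there, and the clock genes divide between both shapes.

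Transcription factors of muscle held 6 of 31 genes at or above 2 times and 1 at or below 0.5 times. Mef2c led, followed by Smyd1, a muscle methyltransferase (2.66-fold higher), Myf6, the MyoD family factor of adult fibres (2.46-fold higher), Smarcd3 (2.39-fold higher), the retinoid receptor Rxrg (2.28-fold higher) and Tbx15 (2.21-fold higher). Myog, the MyoD family factor that rises after denervation, read 6.25 with FoxP1-shRNA against 7.65 with scrambled-shRNA and 5.68 in Sham. Myf6 passed its Sham level and Myog came back toward Sham from above. Myod1 was at 5.80 with FoxP1-shRNA against 5.99 with scrambled-shRNA and 6.99 in Sham. The list's median, -0.03, was that of all genes, so the 6 raised factors were not part of a shift of the whole list.

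The 4 microRNA genes of the muscle-specific miR-1 and miR-133a family were the highest of their class. Mir133a-1 was 11.2-fold higher, the highest difference of the whole table, at 5.39 with FoxP1-shRNA against 1.91 with scrambled-shRNA and 6.28 in Sham. Its relatives Mir1a-2, Mir1a-1 and Mir133a-2 were 4.87-fold higher, 3.91-fold higher and 3.81-fold higher, and Mir1a-1hg, the host transcript of Mir1a-1, was 5.47-fold higher. The scrambled-shRNA levels of these 4 microRNA genes lay between 1.11 and 1.91, near the floor of the array, and the near-identical copies may share probes. Of 529 microRNA genes, 6 were at or above 2 times (1.13%) and 3 at or below 0.5 times (0.567%), so the class as a whole was not above the share of all genes.
The lowered ones included Mir107 and Mir103-2, and their mature strands are set beside that of the raised Mirlet7c-2 because the first and the second share a seed, the part of a microRNA that pairs with its targets (bases 2 to 8, in capitals; RefSeq, GRCm38.p6).
miR-107-3p (Mir107, chr19:34820700-34820722): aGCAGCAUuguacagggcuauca
miR-103-3p (Mir103-2, chr2:131288103-131288125): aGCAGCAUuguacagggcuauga
let-7c-5p (Mirlet7c-2, chr15:85706616-85706637): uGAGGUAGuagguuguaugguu
Mir107 read 3.96 with FoxP1-shRNA against 5.43 with scrambled-shRNA and 4.60 in Sham and Mir103-2 read 3.19 with FoxP1-shRNA against 4.21 with scrambled-shRNA and 3.10 in Sham. Pank1, the pantothenate kinase gene that hosts Mir107, was 2.71-fold lower, whereas Pank2, the host of Mir103-2, was at 7.40 with FoxP1-shRNA against 7.33 with scrambled-shRNA and 7.41 in Sham. The host and the microRNA gene were thus lower together at Pank1 and not at Pank2. Mir103-2 was only just past 2-fold (-1.02), and since its mature strand is nearly that of Mir107, these microRNA genes may share probes. The array reads the gene and not the mature strand.

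Sugar metabolism genes were among the raised ones. Of 25 glycogen genes, 4 were at or above 2 times and none was at or below 0.5 times, with a median of 0.07. Slc37a4, the transporter of glucose 6-phosphate, was 4.42-fold higher, Phkg1, the catalytic subunit of phosphorylase kinase in muscle, 4.39-fold higher, Prkag3, the AMP-activated kinase subunit of fast fibres, 3.71-fold higher and Pgm1, phosphoglucomutase, 2.17-fold higher. Of 33 genes of glycolysis and pyruvate entry, 6 were at or above 2 times and none at or below 0.5 times, with a median of 0.34. Pdp1, the phosphatase that switches pyruvate dehydrogenase on, read 7.75 with FoxP1-shRNA against 5.63 with scrambled-shRNA and 8.59 in Sham, and Gpd1, glycerol 3-phosphate dehydrogenase, read 9.10 with FoxP1-shRNA against 7.31 with scrambled-shRNA and 10.32 in Sham. The opposing kinase gene Pdk4 was 1.44-fold lower and remained above Sham. Pdp1 and Gpd1 were lowest in the tumour-bearing control and below Sham with FoxP1-shRNA.

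The creatine and adenine nucleotide list had 4 of 18 genes at or above 2 times and 1 at or below 0.5 times. Ampd1, the AMP deaminase of adult muscle, read 10.28 with FoxP1-shRNA against 8.48 with scrambled-shRNA and 10.84 in Sham, while Ampd3, the form of other tissues, read 7.65 with FoxP1-shRNA against 9.13 with scrambled-shRNA and 5.46 in Sham. The isoforms therefore lay on opposite sides of the tumour-bearing control. Gamt, which makes creatine, was 3.74-fold higher, Nt5c1a, which breaks down AMP, 2.34-fold higher and Ak1, adenylate kinase, 2.20-fold higher.

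The list of fatty acid use held the gene with the lowest difference, Acot1. Of its 37 genes, 7 were at or below 0.5 times and 2 at or above 2 times, and the median was -0.36. Acot1, which splits acyl-CoA in the cytosol, read 4.52 with FoxP1-shRNA against 8.09 with scrambled-shRNA and 3.23 in Sham, and Acot2, its mitochondrial counterpart, read 9.40 with FoxP1-shRNA against 12.16 with scrambled-shRNA and 8.92 in Sham. The genes are adjacent copies and may share probes. Angptl4, the secreted inhibitor of lipoprotein lipase, was 7.70-fold lower, at 4.98 with FoxP1-shRNA against 7.92 with scrambled-shRNA and 5.20 in Sham, slightly below Sham. Plin5 and Plin2, coats of the lipid droplet, were 3.91-fold lower and 2.83-fold lower, and Acss1, the mitochondrial acetyl-CoA synthetase, was 3.74-fold lower. Apart from Abcd2, the raised member was Fitm1, which helps lipid droplets form (2.63-fold higher).

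Ppara, a nuclear receptor that activates genes of fatty acid use, was 2.16-fold lower, at 5.08 with FoxP1-shRNA against 6.19 with scrambled-shRNA and 5.77 in Sham, and the nuclear receptor Nr4a3 was 3.28-fold lower. No other gene of the 16 PGC-1, ERR and PPAR regulators passed 2-fold, and the coactivator Ppargc1a differed by -0.22. A group of 14 measured genes that respond to PPAR receptors was put together after the values were seen. All 14 were below 0, 6 of them at or below 0.5 times, with a median of -0.67. The group did not hold Abcd2 and Fitm1, the members of the fatty acid list at or above 2 times. Srebf1, which drives lipid synthesis, was 2.45-fold higher, and 2 of the 25 genes of sterol and fatty acid synthesis were at or above 2 times.

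Respiratory chain genes were shifted by small amounts in 1 direction. The median was 0.37 over 34 complex I genes and 0.29 over 39 genes of complexes II to V, with no gene past 2-fold in either. Complex I had a median level of 8.82 with FoxP1-shRNA, 8.33 with scrambled-shRNA and 9.13 in Sham. The 74 mitochondrial ribosomal protein genes had a median of 0.34 and 1 member at or above 2 times, Mrpl18 (2.12-fold higher). Above 0 were 33 of the complex I genes, 36 of those of complexes II to V and 57 of the mitochondrial ribosomal protein genes, beside 44.8% of all genes. The median of the reference genes was -0.03.

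Genes that break down protein lay closer to 0 than those of the membrane and the calcium store. None of 18 atrophy ubiquitin ligase and ubiquitin genes passed 2-fold. Trim63 (MuRF1) read 10.89 with FoxP1-shRNA against 11.57 with scrambled-shRNA and 9.03 in Sham and Fbxo32 (atrogin-1) read 11.20 with FoxP1-shRNA against 11.55 with scrambled-shRNA and 9.68 in Sham, so both ligases were still well above Sham. None of 38 proteasome genes passed 2-fold, and their median was -0.22. In autophagy and the lysosome, 1 of 37 genes was at or below 0.5 times, Gabarapl1, which builds autophagosomes (8.20 with FoxP1-shRNA against 9.56 with scrambled-shRNA and 6.63 in Sham), and 1 was at or above 2 times, Atg10 (2.57-fold higher).

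Stress genes were lowered in several lists. Of 27 immediate early and AP-1 genes, 5 were at or below 0.5 times and none was at or above 2 times, with a median of -0.38. Atf3, a factor that many stresses induce, read 5.52 with FoxP1-shRNA against 7.72 with scrambled-shRNA and 5.92 in Sham, and Fos read 5.10 with FoxP1-shRNA against 7.02 with scrambled-shRNA and 4.64 in Sham. Both were near their Sham levels with FoxP1-shRNA. Csrnp1, Btg2 and Maff were 2.43-fold lower, 2.42-fold lower and 2.12-fold lower, whereas Jun and Socs3 differed by 0.23 and 0.51. The unfolded protein response list had 1 of 20 genes at or below 0.5 times, its sensor Ern1 (IRE1; 2.69-fold lower), and a median of -0.37, and Herpud1 was its highest member (0.45).

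In the ATF4 list, 3 of 31 genes were at or below 0.5 times, namely Atf3, Slc7a5, the large neutral amino acid transporter (2.87-fold lower), and Ppp1r15a, which ends the response (2.02-fold lower). Chac1, which degrades glutathione, went the other way at 9.21 with FoxP1-shRNA against 7.23 with scrambled-shRNA and 7.58 in Sham, above Sham. Of 45 heat shock and chaperone genes, Zfand2a (2.94-fold lower), Hspb1 (2.44-fold lower) and Dnaja4 (2.13-fold lower) were lowered past 2-fold, and the muscle members Hspb3 (3.85-fold higher) and Hspb2 (2.38-fold higher) were raised. Of 32 antioxidant genes, Nqo2, Gsta4 and Nqo1 were at or above 2 times (3.50-fold higher, 2.88-fold higher and 2.09-fold higher) and none was at or below 0.5 times. Taken list by list, heat shock and antioxidant genes thus had members on either side of 0, with medians of -0.11 and 0.05.

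Of 25 p53 targets and CDK inhibitors, 5 were at or below 0.5 times and 3 at or above 2 times. Cdkn1a (p21), which stops the cell cycle, read 9.29 with FoxP1-shRNA against 10.94 with scrambled-shRNA and 7.11 in Sham, and Trp53inp1 was 2.38-fold lower. The GADD45 stress sensors diverged, since Gadd45b and Gadd45g were 2.23-fold lower and 2.26-fold lower whereas Gadd45a was 2.02-fold higher, at 7.88 with FoxP1-shRNA against 6.86 with scrambled-shRNA and 6.16 in Sham. With Eda2r, Gadd45a thus belonged to the raised genes that exceeded both other arrays.

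Among 29 glucocorticoid and FoxO targets, Angptl4 and the insulin receptor substrate Irs2 (2.62-fold lower) were at or below 0.5 times, and Sesn3, Gadd45a and Cited2 were at or above 2 times. Growth factor genes, 46 in number, had 4 at or above and 3 at or below. Angpt1, a ligand of the endothelial receptor TIE2, read 6.22 with FoxP1-shRNA against 3.91 with scrambled-shRNA and 6.92 in Sham, and Frzb, a secreted WNT antagonist, read 5.39 with FoxP1-shRNA against 3.24 with scrambled-shRNA and 7.83 in Sham. Grb14, an adaptor that restrains the insulin receptor, was 2.67-fold higher, and Il15, a cytokine that muscle makes, was 2.25-fold higher. Inhbb, the activin B subunit, was 2.28-fold lower and Fgf1 was 2.19-fold lower. Mstn (myostatin), which restrains muscle growth, was 1.75-fold higher, inside 2-fold. Slc43a1, an amino acid transporter, was 2.95-fold higher and Slc7a8, another, was 3.07-fold lower, at 8.20 with FoxP1-shRNA against 9.82 with scrambled-shRNA and 6.63 in Sham.

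The clock genes had members on either side of the tumour-bearing control. Of 18 measured clock genes, 3 were at or above 2 times and 3 at or below 0.5 times. Arntl (BMAL1), the activator of the loop, read 5.57 with FoxP1-shRNA against 8.33 with scrambled-shRNA and 6.19 in Sham, and its partners Npas2 and Clock were 2.07-fold lower and 1.72-fold lower. Dbp, an output gene that BMAL1 activates, read 8.27 with FoxP1-shRNA against 5.54 with scrambled-shRNA and 9.38 in Sham, and Nfil3, which opposes DBP at the D box, was 2.18-fold lower. Arntl and Dbp thus stood on opposite sides of the tumour-bearing control, and both were below their Sham levels with FoxP1-shRNA. Among the repressors, Per3 and Bhlhe41 (DEC2) were 2.72-fold higher and 3.31-fold higher, whereas Cry2 was 1.97-fold lower. The hour at which each muscle was taken is not given in the sources used here, so its part in these values was not tested.

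**Figure D5:**
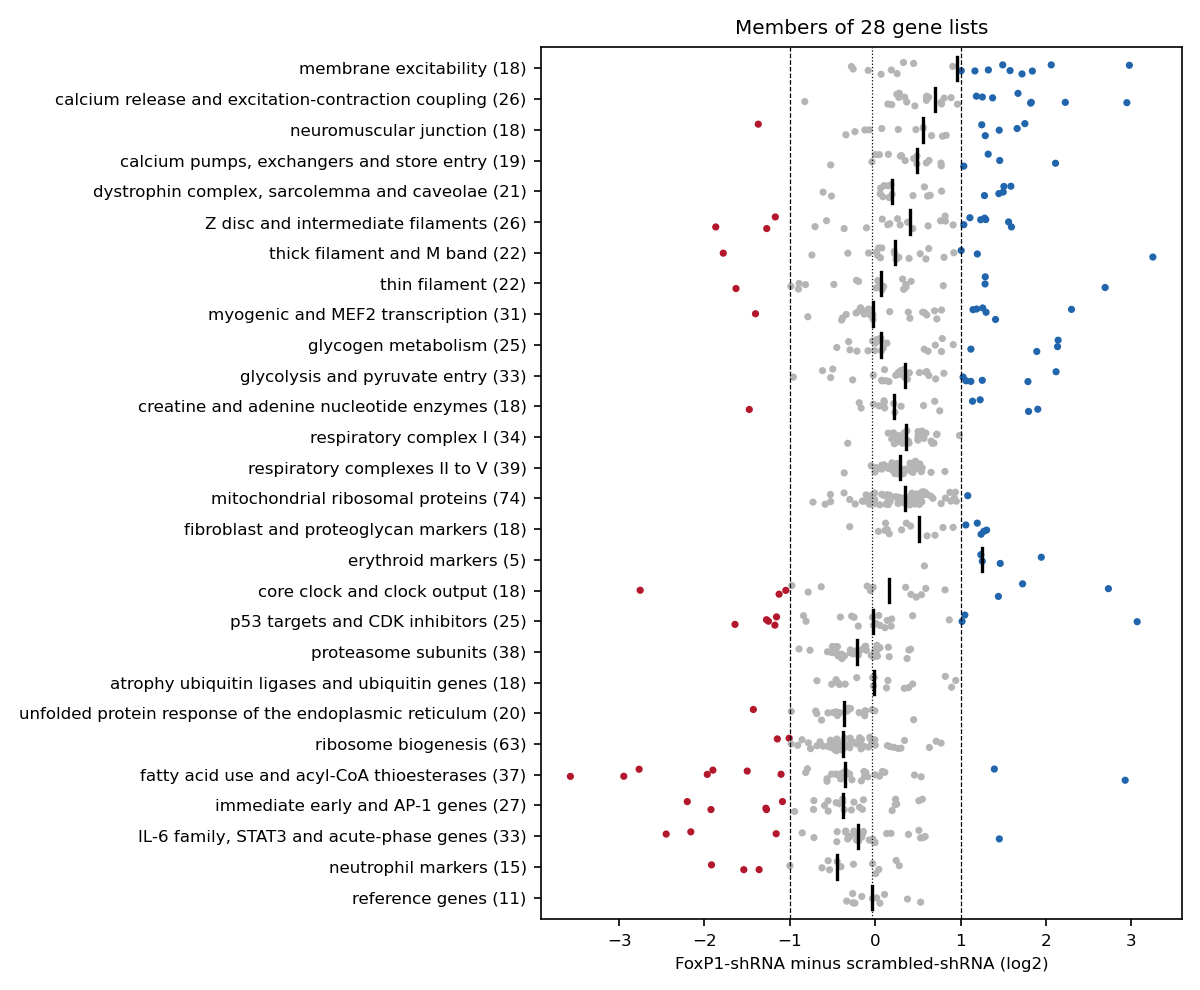
Log2 difference (FoxP1-shRNA minus scrambled-shRNA, both in C26 mice) of each measured member of 28 gene lists, with the number of members in brackets; black bars are list medians, the dotted line is the median of all genes and dashed lines mark 2-fold. Members at or above 2 times are blue and those at or below 0.5 times red: membrane excitability has 9 blue points of 18, and fatty acid use has 7 red points of 37.

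Of the lists for ribosomes, translation and splicing, ribosome biogenesis had the lowest median. The 63 ribosome biogenesis genes had a median of -0.38 with 2 at or below 0.5 times, Gnl3 (nucleostemin; 2.21-fold lower) and Utp14a (2.01-fold lower), and none at or above 2 times. The medians were 0.00 for 55 cytosolic ribosomal protein genes, -0.06 for 43 genes of translation factors and aminoacyl-tRNA synthetases and -0.08 for 32 splicing genes, each list with 1 gene past 2-fold in each direction. The translation factor Eif3a was 2.38-fold lower, and Eef2k, the kinase that slows elongation, was 2.73-fold higher. A class noticed after the values were seen was the host genes of small nucleolar RNAs, long transcripts whose introns hold the guides of ribosomal RNA modification. Of 20 such genes, 7 were at or below 0.5 times (35.0%) and 1 at or above 2 times, with a median of -0.45. Snhg12 read 5.18 with FoxP1-shRNA against 7.27 with scrambled-shRNA and 3.88 in Sham, Snhg1 6.22 with FoxP1-shRNA against 7.83 with scrambled-shRNA and 5.32 in Sham and Snhg6 6.90 with FoxP1-shRNA against 8.34 with scrambled-shRNA and 6.04 in Sham. Each was highest in the tumour-bearing control, and Zfas1, Snhg5, Snhg16 and Epb41l4aos were between 2.20-fold and 2.51-fold lower. Snhg14, which belongs to the imprinted Snrpn region, was 2.46-fold higher. None of the 100 small nucleolar RNA genes themselves passed 2-fold, and their median was 0.12.

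Zinc finger genes were the other class apart from the rest. Of 373 genes with a Zfp symbol, 15 were at or above 2 times (4.02%) and 2 at or below 0.5 times (0.536%), beside 1.44% and 1.06% over all genes. The 5 highest, chosen after the values were seen, were Zfp457, Zfp442, Zfp97, Zfp759 and Zfp668. Zfp457 read 3.24 with FoxP1-shRNA against 1.47 with scrambled-shRNA and 3.18 in Sham and Zfp442 read 3.62 with FoxP1-shRNA against 1.87 with scrambled-shRNA and 3.81 in Sham, levels that are low for this array. The class median was 0.02, so the raised members did not move the class, and several of these genes are near-identical copies that may share probes.

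Genes of other cell types also differed between the arrays, and in pooled muscle RNA, fewer cells of a type and less RNA per cell cannot be told apart. The 15 neutrophil genes had a median level of 4.50 with FoxP1-shRNA, 5.31 with scrambled-shRNA and 3.15 in Sham. Their median difference was -0.45, with 4 genes above 0 and 11 below it. Ngp, Retnlg and Mmp8 were at or below 0.5 times (3.78-fold lower, 2.91-fold lower and 2.57-fold lower), and no member was at or above 2 times. The acute-phase genes Saa1 and Saa3 read 3.49 with FoxP1-shRNA against 5.94 with scrambled-shRNA and 1.79 in Sham and 4.30 with FoxP1-shRNA against 6.46 with scrambled-shRNA and 3.61 in Sham, and Lcn2 (lipocalin 2) stayed high at 11.75 with FoxP1-shRNA against 12.19 with scrambled-shRNA and 5.01 in Sham. Saa1 and Saa3 were 5.46-fold lower and 4.47-fold lower. Lcn2 differed by -0.45, inside 2-fold, but its scrambled-shRNA level was near the highest value of that array (12.45).

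In the macrophage and dendritic cell list, 2 of 20 genes were at or below 0.5 times and 1, Cd209a, was at or above 2 times (1.08). The median difference was -0.17, with 6 genes above 0 and 14 below it. The median levels were 4.84 with FoxP1-shRNA, 5.34 with scrambled-shRNA and 5.31 in Sham. Cd68, of the macrophage lysosome, read 6.45 with FoxP1-shRNA against 8.60 with scrambled-shRNA and 6.83 in Sham and Cd14 was 2.20-fold lower, while Csf1r, the receptor of the macrophage growth factor, differed by 0.05. Ifi30, a lysosomal reductase of antigen-presenting cells, read 7.49 with FoxP1-shRNA against 9.94 with scrambled-shRNA and 7.34 in Sham. The lymphocyte list had 1 of 15 genes past 2-fold, Cd3e, a chain of the T cell receptor complex, at 3.26 with FoxP1-shRNA against 5.68 with scrambled-shRNA and 6.09 in Sham. Igkc, the constant region of the kappa light chain, read 4.26 with FoxP1-shRNA against 7.01 with scrambled-shRNA and 7.87 in Sham, and Ighm, the IgM heavy chain, read 4.36 with FoxP1-shRNA against 5.79 with scrambled-shRNA and 9.05 in Sham (Ighm was chosen after its value was seen). Igkc, Ighm and Cd3e differed from most lowered genes in that their Sham level was above that of the tumour-bearing control. Whether they stand for lymphocyte genes as a whole cannot be told from the lymphocyte list, because it is dim. Its median level was 3.08 with FoxP1-shRNA and 3.21 with scrambled-shRNA, below the array medians of 3.99 and 4.05. Of its 15 genes, 6 were above 0 and 9 below it, with a median difference of -0.16. Across the alternatives of scaling, filter and averaging, that median ran from -1.02 to -0.08. The part of these cells in the other results was not tested.

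Of 18 fibroblast and proteoglycan genes, 5 were at or above 2 times and none was at or below 0.5 times, with a median of 0.51. Lum, Ogn and Fmod, small proteoglycans that bind collagen, were 2.47-fold higher, 2.36-fold higher and 2.29-fold higher, Podn was 2.41-fold higher and Pcolce, which helps to process procollagen, 2.09-fold higher. The 36 collagen and matrix genes had none at or above 2 times and 4 at or below 0.5 times, which were Thbs1 (thrombospondin 1; 2.93-fold lower), Mmp3 (2.37-fold lower), Adamts1 (2.31-fold lower) and Adamts4 (2.10-fold lower). Col1a1, the main fibrillar collagen, was 1.42-fold higher, at 6.71 with FoxP1-shRNA against 6.20 with scrambled-shRNA and 9.40 in Sham. These proteoglycan genes thus lay above 0, and the secreted proteases Mmp3, Adamts1 and Adamts4 lay below it.

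Of 5 measured erythroid genes, 4 were at or above 2 times, with a median of 1.25. Hbb-b1, the beta globin of adult blood, read 7.08 with FoxP1-shRNA against 5.14 with scrambled-shRNA and 5.99 in Sham, and Alas2, which starts heme synthesis in red cells, read 7.98 with FoxP1-shRNA against 6.51 with scrambled-shRNA and 5.98 in Sham. Both were higher with FoxP1-shRNA than on either other array, and the part of blood was likewise not tested. Bpgm, counted in this list too, is also a gene of glycolysis. None of 8 Schwann cell genes and none of 31 cell cycle genes passed 2-fold.

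Of the other genes near the lowered end, Agt, the angiotensin precursor, read 6.18 with FoxP1-shRNA against 8.74 with scrambled-shRNA and 5.81 in Sham, and Mical2, which oxidises actin, read 6.45 with FoxP1-shRNA against 8.86 with scrambled-shRNA and 7.38 in Sham. Itpkc, an inositol trisphosphate kinase, was 5.21-fold lower, Sox4, a transcription factor of developing tissues, 4.73-fold lower and Tmbim1, a membrane protein of the endosome and lysosome, 4.63-fold lower. Phf11c was 7.14-fold lower, at 2.66 with FoxP1-shRNA against 5.49 with scrambled-shRNA and 3.04 in Sham. Along the chromosomes, 23185 genes were placed in order, and 629 of all 25206 genes were past 2-fold in either direction. In this order, 26 pairs of neighbouring measured genes were both past 2-fold, 12 of them both raised, 9 both lowered and 5 opposite. Whether 26 pairs are more than the share of all genes past 2-fold would give was not tested. One run was Phf11c, Setdb2 and Cab39l on chromosome 14, with Setdb2 3.83-fold lower and Cab39l 2.41-fold lower. Others were Saa1 with Saa2, Csrnp1 with Xirp1 and Pank1 with Mir107, all lowered, and Bhlhe41 with Sspn, Kcng4 with Wfdc1 and Mapkapk3 with Cish, all raised. Cish, a suppressor of cytokine signals, was 2.74-fold higher, at 7.81 with FoxP1-shRNA against 6.36 with scrambled-shRNA and 5.91 in Sham. Neighbours can share transcripts or probes, and some pairs are duplicate genes.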

How the data were processed

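Tibialis anterior RNA was hybridized to 3 Mouse Gene 2.0 ST arrays, 1 per group, each a pool of 3 mice. Per the submitters' processing notes, the deposited log2 values come from Robust Multiarray Average (affy 1.36.1, R 2.15.1), which the authors ran with a Brainarray Entrez gene mapping. The method corrects background, aligns the distributions of arrays and gives 1 value per gene, so a change shared by most genes would be removed. For the set of arrays normalized jointly, and for the genome build, the sources used here give nothing. The platform annotation named 23185 genes and left 2021 unnamed here.

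Differences between the C26 arrays were computed with Python 3.11.15, numpy 2.4.6 and pandas 2.3.3, with no filter on dim genes. With 1 array per group no test, p-value or replicate SD exists, so precision is limited by how few arrays there are. Genes were counted at 2-fold, and 55 gene lists were described by counts and medians. The members and lists were chosen with earlier results of these data known, 3 further groups after the values were seen. Named were Foxp1 and genes that the study measured by RT-qPCR, in this or its other experiments. Also named were the 15 highest and 15 lowest differences among ordinary-symbol genes with a level over its array's median in either array. Up to 6 members per list and direction, and up to 6 microRNA genes, were named too. Mir103-2 and the other microRNA genes beyond 6, the Snhg and Zfp genes, Pank1, Pank2, Mir1a-1hg, Ighm, Setdb2, Cab39l, Kcng4 and Mapkapk3 were added after their values were seen. Promoter and microRNA sequences and the order of genes came from RefSeq (GRCm38.p6); promoters were searched on both strands. Alternatives were 4 other scalings, with cyclic loess from limma 3.58.1 under R 4.3.3, a filter on dim genes, ordinary symbols only, 1.5-fold and 3-fold, list means and a shorter promoter window. The counting was checked on data of known differences.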

Additional observations from a re-analysis of the deposited data

How the results depend on the processing

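At 1.5-fold, 1368 genes were raised and 1251 lowered, and at 3-fold 96 and 58. Under the 4 other scalings the counts at 2-fold were 367 to 411 raised and 229 to 264 lowered, and the share of raised genes among those past 2-fold went from 57.6% as deposited to between 58.2% and 64.2%; Foxp1 lay between -0.81 and -0.74. Of the 556 other genes eligible to be named, each under 4 scalings, 2182 of 2224 values kept their sign and their side of 2-fold and none past 2-fold changed sign. Values that moved inside the 2-fold line were among others those of Lrrc39 (0.96), Gadd45a (0.99), Cited2 (0.96), Pgam2 (0.98) and Adamts4 (-0.98) under cyclic loess, and Npas2 (-0.99), Cirbp (-0.99), Ppp1r15a (-0.96) and Utp14a (-0.95) with each array centred on its median, while Tnni1 moved past it (-1.02) under quantile normalization. The medians of 11 of 55 lists changed sign in at least 1 alternative, and the main medians of these 11 lay between -0.05 and 0.10. With the 250 bases before the start alone, the E-box share of raised genes was 19.8% against 12.7% of all promoters, and the MEF2 share 6.41% against 2.42%. No paired analysis was possible because each group is 1 array. No value could be examined as an outlier or as differing between groups, since a group of 1 array has no spread.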
